A study of Glycine max with 32 samples.

Results

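*PsbS* transcripts were followed in soybean leaves that carried the native pair of genes, Glyma.04G249700 and Glyma.06G113200, with or without the Arabidopsis transgene *AtPsbS* (AT1G44575). These 3 genes, of 52875 in the count table, were chosen because the study names them as the native and introduced copies of *PsbS*. All 3 passed the filter on low counts, as did 35639 genes in all. The native copies lie on chromosomes 4 and 6 according to their identifiers in the assembly Wm82.a4.v1, while the insertion site of *AtPsbS* is not given in the sources used here.

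Leaf RNA was sequenced from VPZ-34A and from WT soybean of cultivar Maverick. VPZ-34A is 1 transformation event that overexpresses *AtVDE*, *AtPsbS* and *AtZEP*, so that effects of the transgenes and of this event cannot be told apart, and which promoter drives each transgene is not stated in the sources used here. The study's text says only that the promoters differ from the native ones, and names *AtGAPA*, *AtFBA* and *AtRBCS*, genes of photosynthetic carbon metabolism, where it considers in which tissues the transgenes may be expressed. Both lines grew in the field in 8 open-air rings, 4 at e[CO2] of 600 µmol mol-1 and 4 at a[CO2] of 410 µmol mol-1, and were sampled at R5–R6 (R6 in the sample labels) and at V4–V5. The R number that ends each sample title was read as the ring. Each of the 8 groups of line, CO2 level and stage therefore had 4 libraries, each from pooled leaf disks of several plants of 1 ring.

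PsbS is a thylakoid membrane protein of photosystem II (PSII) that senses acidification of the lumen in strong light. It triggers qE, the fastest component of non-photochemical quenching (NPQ), by which excess absorbed light is released as heat. Violaxanthin de-epoxidase (VDE) and zeaxanthin epoxidase (ZEP), the products of the other transgenes, make and remove zeaxanthin in the xanthophyll cycle, which modulates the same quenching.

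Libraries held 16091207 to 63132399 counts, and 6 of them exceeded 3e+07. Levels are given as CPM, counts scaled to a common library size, with library sizes corrected by TMM, the Trimmed Mean of *M*-values. The stages differ in this scaling, so that with library totals alone the median log2 fold change (FC) of all genes between stages was 0.31, against 0.01 with TMM. The counts of AT1G44575 were whole numbers in 32 of 32 libraries, whereas those of Glyma.04G249700 were whole in 14 and those of Glyma.06G113200 in 17, because reads that aligned to several loci had been divided among them. How many reads the native copies share cannot be told from the table. The leaf identity of the samples was taken from the labels and was not checked with marker genes.

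In WT libraries, which lack the transgene, *AtPsbS* was at or near 0. It had 0 counts in 5 of the 16 WT libraries, at most 29 counts in any of them and 83 counts in all, with a highest level of 0.826 CPM. A count of 0 allowed a share of up to 0.00482% of *PsbS* counts in the one of these 5 libraries with the fewest *PsbS* counts, where 3 counts are taken as the limit. The lowest VPZ-34A library had 921 times the level of the highest WT library. Intervals and limits cover counting error only.

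**Figure D1:**
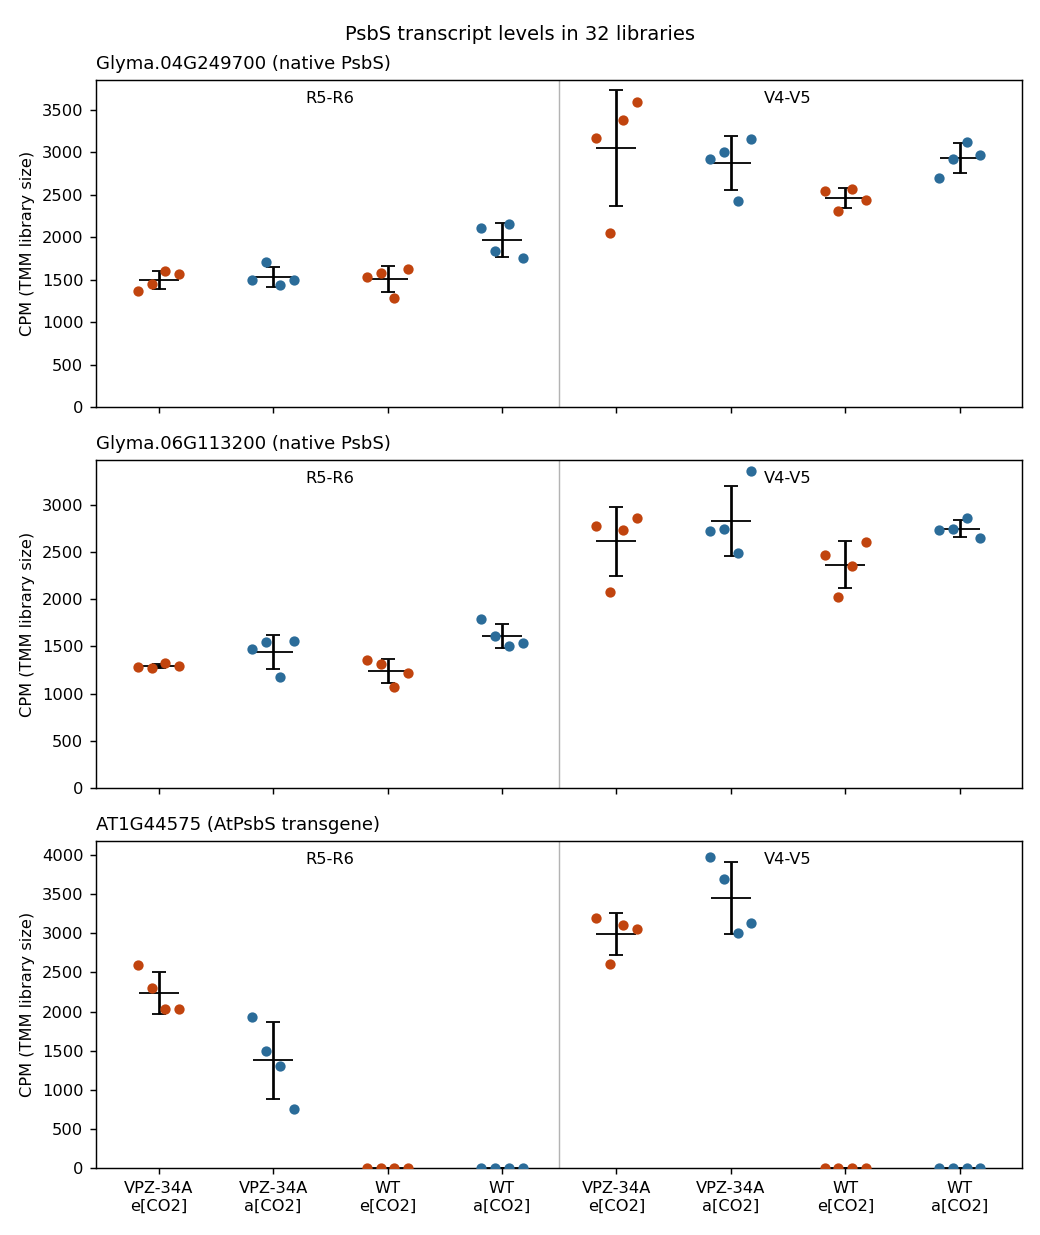
CPM of each *PsbS* gene in 32 libraries, with R5–R6 left and V4–V5 right. Points are single libraries, red for e[CO2] and blue for a[CO2], and bars are mean ± SD of 4 libraries. All 3 genes were lower at R5–R6 than at V4–V5 in every group that carried them, and AtPsbS at R5–R6 was higher in the e[CO2] rings than in the a[CO2] rings.

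Both native genes fell at the later stage, in both lines. Glyma.04G249700 had 1362, 1450, 1598 and 1571 CPM in VPZ-34A at e[CO2] at R5–R6, against 3171, 2054, 3379 and 3586 CPM at V4–V5 (rings 3, 5, 6 and 8). In VPZ-34A at a[CO2] it had 1501, 1705, 1434 and 1501 CPM at R5–R6, against 2922, 3002, 2421 and 3160 CPM at V4–V5 (rings 1, 2, 4 and 7). The stages did not overlap at either CO2 level, and the level in ring 5 at V4–V5 was the lowest of that stage. In WT at e[CO2], Glyma.04G249700 had 1531, 1582, 1282 and 1625 CPM at R5–R6, against 2541, 2307, 2572 and 2438 CPM at V4–V5. In WT at a[CO2] it had 2115, 1833, 2161 and 1756 CPM at R5–R6, against 2697, 2925, 3125 and 2973 CPM at V4–V5. Here too no R5–R6 library reached a V4–V5 library.

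Glyma.06G113200, the other native copy, showed the same separation. In VPZ-34A at e[CO2] it had 1278, 1272, 1322 and 1293 CPM at R5–R6, against 2780, 2077, 2732 and 2863 CPM at V4–V5. In VPZ-34A at a[CO2] it had 1469, 1550, 1175 and 1556 CPM at R5–R6, against 2725, 2747, 2492 and 3359 CPM at V4–V5. The R5–R6 values at e[CO2] spanned only 1272 to 1322 CPM, the narrowest of its 8 groups. In WT at e[CO2] it had 1356, 1316, 1071 and 1213 CPM at R5–R6, against 2470, 2027, 2357 and 2607 CPM at V4–V5. In WT at a[CO2] it had 1785, 1611, 1501 and 1539 CPM at R5–R6, against 2737, 2749, 2861 and 2648 CPM at V4–V5.

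Averaged over lines and CO2, Glyma.04G249700 fell by 42.8% at R5–R6, a log2FC of −0.80 (95% interval −0.96 to −0.65, adjusted p = 7.51e-11). Glyma.06G113200 fell by 47.3%, a log2FC of −0.92 (95% interval −1.06 to −0.79, adjusted p = 7.50e-13). These p-values come from the quasi-likelihood F-test of edgeR and are adjusted by Benjamini-Hochberg across every gene tested. Both native genes passed this test, where 75.2% of all genes tested did so, so that a call alone does not set them apart. Non-overlap of the stages was common as well, at 47.7% of genes in VPZ-34A at e[CO2], 43.3% in VPZ-34A at a[CO2], 42.8% in WT at e[CO2] and 43.5% in WT at a[CO2]. Summed over both native genes, the R5–R6 level was lower in 8 of 8 rings, with a log2 difference of −0.86 (two-sided exact permutation over rings, p = 0.0078). No smaller p is possible with 8 rings. Over the 13 ring-level tests made here its adjusted p was 0.051. With library totals alone the size of the decrease depended on the scaling, at −0.50 for Glyma.04G249700 and −0.63 for Glyma.06G113200. Stage and calendar date cannot be told apart in this design, nor can fewer cells of a type and less RNA per cell in a bulk leaf sample.

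Within lines the decrease of Glyma.04G249700 was −0.97 on the log2 scale in VPZ-34A (standard error 0.10) and −0.64 in WT (standard error 0.10). That of Glyma.06G113200 was −0.997 in VPZ-34A (standard error 0.10) and −0.85 in WT (standard error 0.10). All 4 values passed the adjusted p of 0.05, as did 66.5% of all genes in VPZ-34A and 62.8% in WT. The ratio of R5–R6 to V4–V5 of the same ring was 0.430 to 0.706 in VPZ-34A and 0.498 to 0.784 in WT for Glyma.04G249700, and 0.452 to 0.612 in VPZ-34A and 0.454 to 0.652 in WT for Glyma.06G113200. The difference between lines in the stage effect did not pass the test. The interaction of line and stage was −0.32 for Glyma.04G249700 (95% interval −0.62 to −0.02, unadjusted p = 0.0355, adjusted p = 0.909) and −0.14 for Glyma.06G113200 (95% interval −0.42 to 0.13, adjusted p = 0.939) by the edgeR test. For that interaction 0% of genes passed in edgeR, with 1932 genes at an unadjusted p under 0.05, while DESeq2 called 6 and limma-voom 1.

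No difference of the native pair between VPZ-34A and WT was detected. Averaged over stages and CO2, the log2FC of VPZ-34A against WT was −0.02 for Glyma.04G249700 (95% interval −0.17 to 0.13, adjusted p = 0.980) and 0.02 for Glyma.06G113200 (95% interval −0.12 to 0.16, adjusted p = 0.977) by the edgeR test. Neither native gene passed, against 0.213% of all genes for this comparison. Within a ring, VPZ-34A had 0.664 to 1.25 times the WT level of Glyma.04G249700 at R5–R6 and 0.775 to 1.47 times at V4–V5. For Glyma.06G113200 the ratio was 0.783 to 1.23 at R5–R6 and 0.871 to 1.27 at V4–V5. When the ring was a fixed replicate block, which pairs the lines within each ring, the log2FC was −0.03 for Glyma.04G249700 and 0.02 for Glyma.06G113200. The summed native level was higher in VPZ-34A in 4 of 8 rings, with a log2 difference of −0.01 (two-sided exact permutation test, p = 0.91).

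**Figure D2:**
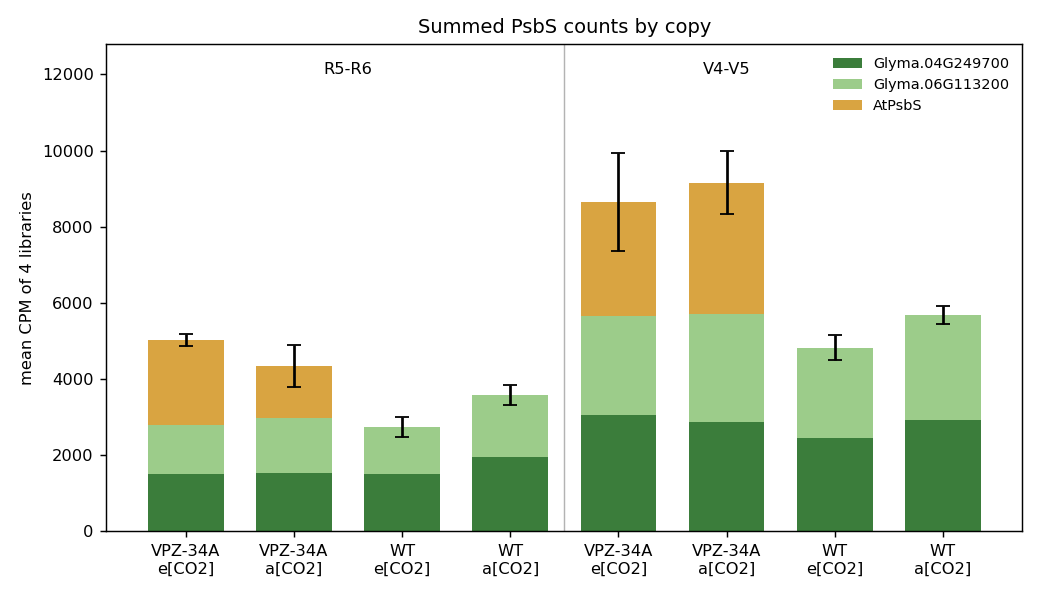
Mean CPM of the 3 *PsbS* copies stacked for each group of 4 libraries, R5–R6 left and V4–V5 right. Error bars are the SD of the summed level. VPZ-34A was above WT at each stage and CO2 level. The native portion was higher in VPZ-34A than in WT at e[CO2] at V4–V5 (5660 and 4829 CPM), lower at a[CO2] at R5–R6 (2973 and 3575 CPM), and closer in the other pairs.

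With *AtPsbS* added, summed *PsbS* in VPZ-34A was 1.07 to 2.11 times that of WT in the same ring at R5–R6 (median 1.55) and 1.32 to 1.88 times at V4–V5 (median 1.74). The lowest ratios at R5–R6 were 1.07 in ring 4 and 1.16 in ring 7, both at a[CO2]. At R5–R6 the summed level was 5026 ± 151 CPM in VPZ-34A at e[CO2] and 2744 ± 262 CPM in WT at e[CO2] (SD, n = 4 each). At a[CO2] it was 4349 ± 560 CPM in VPZ-34A and 3575 ± 264 CPM in WT. At V4–V5 it was 8650 ± 1284 CPM in VPZ-34A and 4830 ± 334 CPM in WT at e[CO2]. At a[CO2] it was 9155 ± 832 CPM in VPZ-34A and 5679 ± 229 CPM in WT. The excess over WT was 0.58 on the log2 scale at R5–R6 and 0.76 at V4–V5, and the difference of −0.18 did not pass (two-sided exact permutation test, p = 0.13). Counts were not divided by gene length, so that shares and sums compare reads and not molecules.

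*AtPsbS* itself was less abundant at R5–R6 in 8 of 8 rings. In VPZ-34A at e[CO2] it had 2600, 2297, 2033 and 2028 CPM at R5–R6, against 3195, 2606, 3106 and 3052 CPM at V4–V5 (rings 3, 5, 6 and 8). At a[CO2] it had 1932, 1503, 1310 and 760 CPM at R5–R6, against 3977, 3687, 3002 and 3128 CPM at V4–V5 (rings 1, 2, 4 and 7). The stages did not overlap at either CO2 level, though at e[CO2] the highest R5–R6 library nearly met the lowest V4–V5 library. The stage effect within VPZ-34A was −0.87 on the log2 scale (standard error 0.30, adjusted p = 0.0122, edgeR). When the 16 VPZ-34A libraries were fitted alone, without the near-zero WT values, the same log2FC of −0.87 had an adjusted p of 0.000165. In the fit of all 32 libraries the call was lost with limma-voom (adjusted p = 0.156), with DESeq2 (adjusted p = 0.210), with library totals alone (log2FC −0.58, adjusted p = 0.0770) and without the 6 deepest libraries (log2FC −0.73, adjusted p = 0.0521).

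At R5–R6 the e[CO2] and a[CO2] rings did not overlap in *AtPsbS*, with 2240 ± 271 CPM at e[CO2] and 1376 ± 486 CPM at a[CO2] (SD, n = 4 each). Such separation was found in 5.86% of all genes in VPZ-34A at R5–R6, and in 2.87% at V4–V5, where *AtPsbS* overlapped at 2990 ± 263 CPM at e[CO2] and 3448 ± 462 CPM at a[CO2]. The edgeR test did not call the difference at R5–R6, at a log2FC of 0.70 (95% interval −0.16 to 1.57, unadjusted p = 0.107, adjusted p = 0.473). This interval and those below come from the fit of all 32 libraries, with the near-zero WT values. When the 16 VPZ-34A libraries were fitted alone in edgeR, 0 genes passed at R5–R6. For this comparison 0% of genes passed in edgeR, with 4782 at an unadjusted p under 0.05, while DESeq2 called 246 and limma-voom 5. At V4–V5 the log2FC was −0.21 (95% interval −1.07 to 0.66), where again 0% of genes passed, with 1498 at an unadjusted p under 0.05, 19 called by DESeq2 and 0 by limma-voom. Averaged over stages it was 0.25 (95% interval −0.36 to 0.86, adjusted p = 0.756), where 0% passed, with 4673 at an unadjusted p under 0.05, 237 called by DESeq2 and 0 by limma-voom. This average counted both stages of a ring as separate replicates of its CO2 level. The difference at R5–R6 was 0.51 without ring 7 and 0.38 without the 6 deepest libraries, which include those of VPZ-34A from rings 4 and 7 at that stage. *AtVDE* and *AtZEP* in the same libraries had log2FCs of −0.000677 (95% interval −0.56 to 0.56) and −0.08 (95% interval −0.48 to 0.31) for e[CO2] against a[CO2], and whether they differed from *AtPsbS* was not tested. In ring 7, where *AtPsbS* was lowest at 760 CPM, *AtVDE* had the highest R5–R6 level of any ring, at 130 CPM.

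The share of *AtPsbS* in summed *PsbS* counts, which needs no scaling between libraries, separated the CO2 levels at R5–R6. At V4–V5 the CO2 levels overlapped in this share. At e[CO2] it was 49.6%, 45.8%, 41.1% and 41.4% at R5–R6, against 34.9%, 38.7%, 33.7% and 32.1% at V4–V5 (rings 3, 5, 6 and 8). At a[CO2] it was 39.4%, 31.6%, 33.4% and 19.9% at R5–R6, against 41.3%, 39.1%, 37.9% and 32.4% at V4–V5 (rings 1, 2, 4 and 7). The share was thus higher at R5–R6 in 4 of 4 elevated rings and lower in 4 of 4 ambient rings. The exact (Clopper-Pearson) binomial 95% interval of the first of these shares was 49.3% to 49.9%, so that counting error was small beside the spread between rings.

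**Figure D3:**
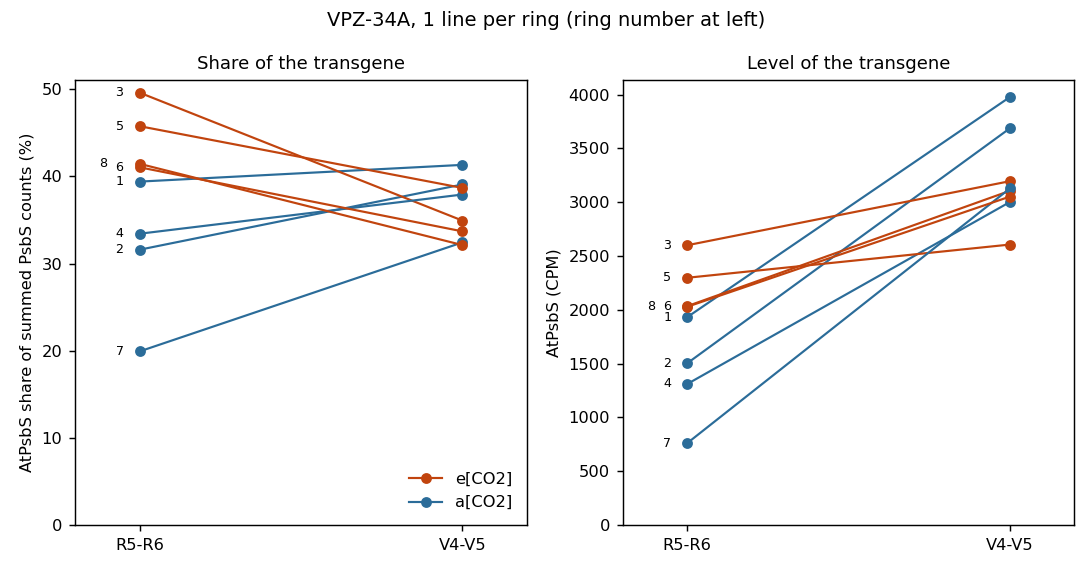
Share of AtPsbS in summed *PsbS* counts (left, %) and its level (right, CPM) in VPZ-34A, with R5–R6 and V4–V5 of each of 8 rings joined by a line. The share lay above its V4–V5 value in the 4 e[CO2] rings (red) and below it in the 4 a[CO2] rings (blue), while the level was lower at R5–R6 in all 8.

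Expressed as the log2 ratio of *AtPsbS* to summed native counts, the change at R5–R6 relative to V4–V5 averaged 0.58 in the elevated rings and −0.46 in the ambient rings. The difference of 1.04 between CO2 levels had p = 0.029 when the 4 elevated and 4 ambient rings were permuted exactly (two-sided, with no smaller p possible), and an adjusted p of 0.093 over the 13 ring-level tests. The field had 4 blocks, each with 1 elevated and 1 ambient plot, and because the labels do not say which rings form a block, all CO2 permutations here treated the 8 rings as exchangeable. Exchange within blocks alone could not give a p below 0.125. The difference of 1.04 lay between 0.87 and 1.15 under the alternatives tried, ring 7 left out included. Leaving out the deepest libraries was not among these alternatives, so how far the difference depends on those libraries was not tested. Averaged over CO2 the stage difference did not pass (log2 difference 0.06, p = 0.77), nor did the CO2 difference averaged over stages (0.34, p = 0.14, both exact permutation tests). In the edgeR fit of all 32 libraries, near-zero WT values included, the matching CO2 by stage difference of the *AtPsbS* level was 0.91 (95% interval −0.31 to 2.13, unadjusted p = 0.138). Under its alternatives, leaving out the deepest libraries included, this difference of the level lay between 0.56 and 1.04 and did not pass. For that term 0% of genes passed in edgeR, with 1638 at an unadjusted p under 0.05 and 0 called by DESeq2 or limma-voom.

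Set beside the native pair, *AtPsbS* kept a larger part of its V4–V5 level than they did in every elevated ring and a smaller part in every ambient ring. In rings 3, 5, 6 and 8 the R5–R6 to V4–V5 ratio was 0.814, 0.882, 0.655 and 0.664 for *AtPsbS*, and 0.444, 0.659, 0.478 and 0.444 for summed native *PsbS* of VPZ-34A. In rings 1, 2, 4 and 7 it was 0.486, 0.408, 0.436 and 0.243 for *AtPsbS*, and 0.526, 0.566, 0.531 and 0.469 for the native sum. The native ratios of elevated and ambient rings overlapped, whereas those of *AtPsbS* did not. The share of all genes with such separate ratios was not counted, so that the separation alone does not set *AtPsbS* apart. These ratios use the same libraries as the share and are no separate evidence for it.

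Native *PsbS* in WT was lower at e[CO2] than at a[CO2] in every library at both stages. Glyma.04G249700 averaged 1505 ± 154 CPM at e[CO2] and 1966 ± 202 CPM at a[CO2] in WT at R5–R6, and 2464 ± 120 CPM at e[CO2] and 2930 ± 177 CPM at a[CO2] at V4–V5 (SD, n = 4 each). Glyma.06G113200 averaged 1239 ± 127 CPM at e[CO2] and 1609 ± 126 CPM at a[CO2] at R5–R6, and 2365 ± 248 CPM at e[CO2] and 2749 ± 87.4 CPM at a[CO2] at V4–V5. Non-overlap in WT was found in 2.12% of all genes at R5–R6 and 4.71% at V4–V5, and in the same direction at both stages in 0.0814%, which is 29 genes. This pattern was seen in the values and then counted, and it depended on scaling. With library totals alone only Glyma.06G113200 at R5–R6 remained separate, at 1289 to 1478 CPM at e[CO2] and 1718 to 1826 CPM at a[CO2]. In VPZ-34A both native genes overlapped between CO2 levels at both stages.

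**Figure D4:**
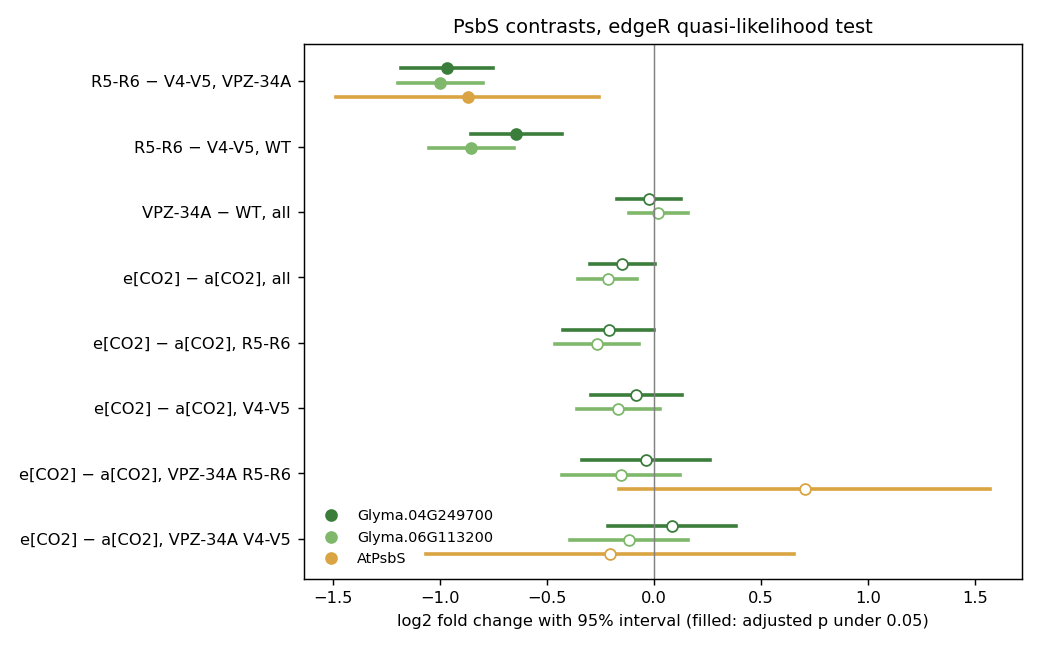
Log2FC (points) with 95% intervals (lines) of the *PsbS* genes for stage, line and CO2 contrasts, from edgeR's quasi-likelihood test. Filled points passed an adjusted p of 0.05. The stage contrasts lie below 0, with −0.87 for AtPsbS in VPZ-34A, and the intervals of the line contrasts include 0.

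Tested across all genes, the CO2 effect on the native pair did not pass. Averaged over lines and stages, the log2FC of e[CO2] against a[CO2] was −0.15 for Glyma.04G249700 (95% interval −0.30 to 0.00221, adjusted p = 0.312) and −0.22 for Glyma.06G113200 (95% interval −0.35 to −0.08, unadjusted p = 0.00333, adjusted p = 0.103) in edgeR, where 1.04% of genes passed. DESeq2 called Glyma.06G113200, at −0.21 with an adjusted p of 0.0201. Neither fit has a term for the ring, so the libraries of a ring counted as separate replicates of its CO2 level. With limma-voom 308 genes passed for this comparison, and 11 when the ring was a random replicate block. By stage, the log2FC of Glyma.04G249700 was −0.21 at R5–R6 (adjusted p = 0.314, edgeR) and −0.08 at V4–V5 (adjusted p = 0.911, edgeR). That of Glyma.06G113200 was −0.27 at R5–R6 (adjusted p = 0.159, edgeR) and −0.17 at V4–V5 (adjusted p = 0.726, edgeR). Neither native gene passed at either stage, where 0.724% of genes did so at R5–R6 and 0.0196% at V4–V5.

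The difference between lines in this response was not resolved. The interaction of line and CO2 was 0.34 for Glyma.04G249700 (95% interval 0.04 to 0.64, unadjusted p = 0.0272, adjusted p = 0.985) and 0.16 for Glyma.06G113200 (95% interval −0.11 to 0.44, adjusted p = 0.985) in edgeR. For this interaction 0% of genes passed, with 1516 at an unadjusted p under 0.05 and 0 called by DESeq2 or limma-voom. The CO2 effect differed between stages by −0.13 for Glyma.04G249700 and −0.10 for Glyma.06G113200, where 0% of genes passed in edgeR, with 2606 at an unadjusted p under 0.05, 31 called by DESeq2 and 0 by limma-voom. At the level of rings, summed native *PsbS* was lower at e[CO2], with 4 of 4 elevated rings below the ambient mean (log2 difference −0.18, two-sided exact permutation test, p = 0.029, adjusted p = 0.093 over 13 tests). This difference had an exact permutation p of 0.057 with library totals alone or without ring 1, 2, 4, 5 or 7, and of 0.29 when the counts of a ring were summed first.

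The native copies contributed nearly equal counts, with Glyma.04G249700 slightly ahead in most libraries. At R5–R6 its ratio to Glyma.06G113200 was 1.07, 1.14, 1.21 and 1.21 in VPZ-34A at e[CO2], and 1.02, 1.10, 1.22 and 0.964 in VPZ-34A at a[CO2]. In WT at R5–R6 the ratio was 1.13, 1.20, 1.20 and 1.34 at e[CO2], and 1.18, 1.14, 1.44 and 1.14 at a[CO2]. All 8 WT libraries of that stage thus had more counts of the chromosome 4 copy. At V4–V5 it was 1.14, 0.989, 1.24 and 1.25 in VPZ-34A at e[CO2], and 1.07, 1.09, 0.972 and 0.941 in VPZ-34A at a[CO2]. In WT at V4–V5 it was 1.03, 1.14, 1.09 and 0.935 at e[CO2], and 0.986, 1.06, 1.09 and 1.12 at a[CO2]. The CO2 levels overlapped in each line at each stage, whereas the stages did not overlap in WT at a[CO2], at 1.14 to 1.44 at R5–R6 and 0.986 to 1.12 at V4–V5. Libraries on either side of 1 occurred in both lines.

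**Figure D5:**
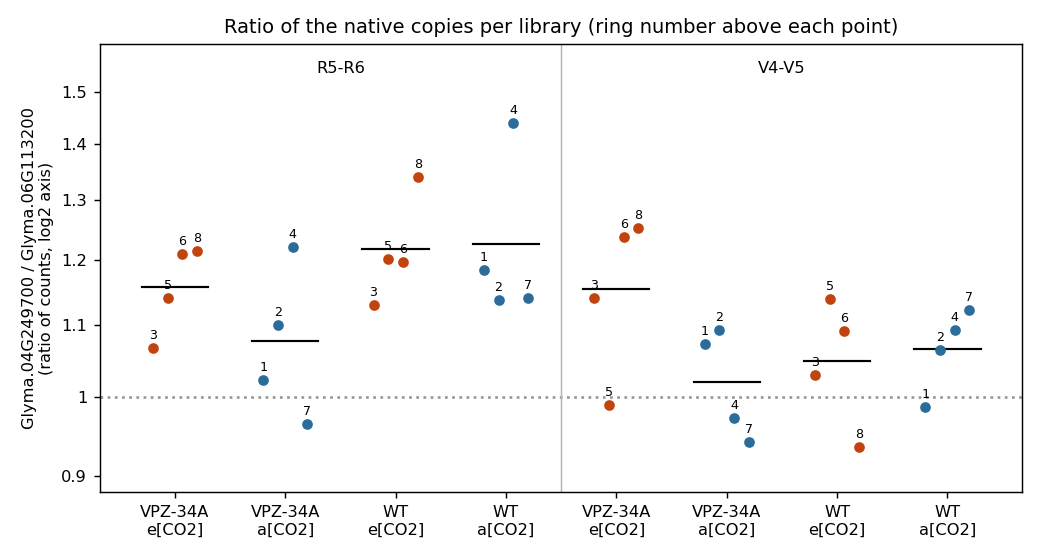
Ratio of Glyma.04G249700 to Glyma.06G113200 counts (log2 axis) in each library, R5–R6 left and V4–V5 right, with the ring number above each point and a line at the group mean. In WT the ratio was higher at R5–R6 than at V4–V5 in 8 of 8 rings, and ring 4 at a[CO2] reached 1.44.

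Within rings the ratio was compared between the stages. Averaged over lines, the ratio was 1.09 times as high at R5–R6 as at V4–V5, and higher in 8 of 8 rings (log2 difference 0.12, two-sided exact permutation test, p = 0.0078, adjusted p = 0.051 over 13 tests). By line, it was higher at R5–R6 in 4 of 8 rings of VPZ-34A (mean log2 difference 0.04) and in 8 of 8 rings of WT (0.21). The difference between lines of −0.16 did not pass (exact permutation test, p = 0.062, adjusted p = 0.16). Differences of the ratio between lines (−0.05, p = 0.36) and between e[CO2] and a[CO2] (0.06, p = 0.20) did not pass either, nor did the difference of its CO2 effect between lines (0.16, p = 0.11) or between stages (−0.02, p = 0.77, all exact permutation tests). At least 18 of 32 values of Glyma.04G249700 and at least 15 of 32 of Glyma.06G113200 included divided reads. Parts of divided reads can also add up to a whole number. The ratio therefore depends in part on how such reads were assigned.

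Within a stage, over rings of both CO2 levels, the native copies varied together in WT, at V4–V5 less closely without 2 rings. In VPZ-34A they did so at V4–V5 only with 2 rings included. The difference between lines was not tested. Over 8 rings of WT, Pearson's r of their log2 CPM was 0.87 at R5–R6 (Spearman's rho 0.76, exact permutation p = 0.0063 and 0.037) and 0.81 at V4–V5 (rho 0.83, p = 0.0092 and 0.015). Without the 2 rings farthest from the median it was 0.90 at R5–R6 and 0.56 at V4–V5. In VPZ-34A it was 0.55 at R5–R6 (rho 0.62, exact permutation p = 0.16 and 0.11) and 0.81 at V4–V5 (rho 0.76, p = 0.012 and 0.037), but the value at V4–V5 rested on 2 rings, being 0.09 without them. *AtPsbS* and the native sum gave −0.41 at R5–R6 (rho −0.43, exact permutation p = 0.32 and 0.30) and 0.46 at V4–V5 (rho 0.24, p = 0.25 and 0.58). Without the 2 farthest rings these were −0.77 and −0.86. Of these 6 relations, the 3 with r above 0.8 had adjusted p = 0.024 for r and 0.074 for rho. Each ring has 1 CO2 level, and 4 rings per level are too few for a value within CO2 levels. In WT both native copies were lower at e[CO2] at both stages, so the difference between CO2 levels enters these values of r. Both copies also share the scaling of a library and may share divided reads. How much of r these make up was not tested.

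Over all 32 libraries, which share the stage difference, the genes with a pattern most like the mean of the native pair were Glyma.09G152100 (Pearson's r of log2 CPM 0.980), Glyma.16G203100 (0.977), Glyma.02G091300 (0.970), Glyma.05G112100 (0.967) and Glyma.02G173600 (0.965). Among 35638 other genes, Glyma.06G113200 ranked 2 by likeness to Glyma.04G249700 (r = 0.959), whereas Glyma.04G249700 ranked 45 by likeness to Glyma.06G113200. Over the 16 VPZ-34A libraries the genes most like *AtPsbS* were Glyma.13G322200 (0.958), Glyma.05G150000 (0.947), Glyma.03G241900 (0.941), Glyma.08G177900 (0.935) and Glyma.12G199400 (0.934). Its r was 0.717 with Glyma.04G249700 and 0.683 with Glyma.06G113200, at ranks 4209 and 5385, and 0.701 with *AtVDE* and 0.663 with *AtZEP*.

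The 5 other native *VDE* and *ZEP* genes, the enzymes of the xanthophyll cycle, did not share one direction with native *PsbS*. At R5–R6 against V4–V5, 3 of 5 were higher and 1 of 5 lower in edgeR, with a median log2FC of 0.30, beside 0.01 over all genes tested, of which 75.2% passed. For e[CO2] against a[CO2], 1 of 5 was lower and the median was −0.25, against a median over all genes of −0.00415 and a share of 1.04% that passed. None of the 5 passed for VPZ-34A against WT in edgeR, where 0.213% of all genes did and their median was 0.09.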

How the data were processed

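RNA sequencing counts of 32 leaf libraries were used. The deposited values are estimated counts per gene that the authors made with STAR 2.7.10a and featureCounts (Subread 2.0.4) after trimming with Trimmomatic 0.39, as given in the submitters' processing notes. The reference was Wm82.a4.v1 plus the 3 transgene sequences, and reads with several alignments were divided among loci, so that 32.6% of the nonzero values were not whole. The ComBat-seq step of the study is not part of these counts and was not used here.

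Counts were rounded, filtered with filterByExpr, scaled with TMM and tested in edgeR 4.0.16 (R 4.3.3) with 1 mean per group and Benjamini-Hochberg adjustment over all genes at 0.05. This model had no term for the ring. CPM, shares and ratios used the unrounded counts. Ratios, shares and sums were tested with two-sided exact permutations over the 8 rings. Lines and stages are paired by the R number that ends each sample title. The titles give only this number, and reading it as the ring is an inference. Deviations from group means correlated between lines of a ring (median r = 0.295 at R5–R6 and 0.186 at V4–V5), and between stages of a ring at 0.0636 in VPZ-34A and −0.0356 in WT. No source says whether the pools of a ring came from separate plants at each stage. Chi-square per gene between libraries of a group was 10.9 to 183 over 48 pairs, so none was counted as a copy.

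Alternatives were RLE size factors, library totals alone, no filter, limma-voom (limma 3.58.1), DESeq2 1.42.0, unrounded counts, the ring as a replicate block, each stage or VPZ-34A alone, a pseudocount of 10 and counts summed first in the ring-level tests, and each ring left out. Leaving out the 6 deepest libraries, and library totals for the WT levels by CO2, were added after seeing the data. The deepest libraries were not left out in the ring-level tests. The members and lists were chosen with earlier results of these data known. The named genes are the 3 *PsbS* genes, the other *VDE* and *ZEP* genes of the study and the 5 genes of highest r with the native mean and with *AtPsbS*. The tests were tested on simulated data. Sequences, gene lengths and product names of these genes were not used here, and lists by product name and tissue markers were therefore not tested. 0 columns were unmapped.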

Additional observations from a re-analysis of the deposited data

Results flagged for a closer look

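In WT at a[CO2] at R5–R6, the ratio of Glyma.04G249700 to Glyma.06G113200 was 1.44 in ring 4, far from the 1.14 to 1.18 of the other 3 rings. This library had 43341836 counts, the deepest of the WT libraries at that stage. In VPZ-34A at e[CO2] at V4–V5, Glyma.06G113200 was at 2077 CPM in ring 5, far below the 2732 to 2863 CPM of the other 3 rings. Glyma.04G249700 and *AtPsbS* were also lowest of their group in that library, at 2054 and 2606 CPM, and its total of 55755989 counts was the highest at V4–V5. The part of depth in these values was not tested. Of 32 combinations of group and measure examined, chance gives about 1 such distant sample in 20.

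The stage difference in the log2 ratio of *AtPsbS* to native *PsbS* differed between CO2 levels by 1.04, with 0.58 at e[CO2] and −0.46 at a[CO2] (exact permutation test over rings, p = 0.029). It was flagged for an unadjusted p under 0.05. No smaller p was possible, and the adjusted p was 0.093 over the 13 ring-level tests.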

How the results depend on the processing

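Of 186 alternative values for the 13 main results, 172 kept their direction and their side of the threshold. The stage effects of both native genes did so throughout. The stage effect on *AtPsbS* in VPZ-34A, −0.87 in edgeR, lost its call at −0.58 with library totals alone, −0.90 with limma-voom, −0.88 with DESeq2, −0.90 when limma-voom took the ring as random replicate block, and −0.73 without the 6 deepest libraries (chosen after seeing the data). The CO2 effect on Glyma.06G113200 passed with DESeq2 at −0.21, in a fit without a term for the ring. In the paired fit with the ring as a fixed replicate block, the stage effect on *AtPsbS* was −0.90, and that fit changed no call. Values near 0 changed sign. With each ring left out in turn, the line effect was −0.0553 to 0.0251 for Glyma.04G249700 (0.0331 without the 6 deepest libraries) and −0.0187 to 0.0532 for Glyma.06G113200. The CO2 effect on Glyma.04G249700 at V4–V5 was −0.12 to 0.0137, with 0.00187 for library totals alone and 0.0171 without the 6 deepest libraries. The CO2 by stage difference of the native ratio was −0.0661 to 0.0515, the line difference of the native sum −0.0530 to 0.0467, the stage difference of the *AtPsbS* share −0.0522 to 0.21, and its CO2 difference 0.15 to 0.47 (exact permutation p = 0.029 without ring 1). The CO2 difference of the native sum, exact permutation p = 0.029, had p = 0.057 without ring 1, 2, 4, 5 or 7 (−0.21 to −0.14 over all rings left out in turn) and with library totals alone (−0.11), and 0.29 with the counts of a ring summed first (−0.12). The causes were not tested. With 4 rings per CO2 level, p cannot go below 0.029, or below 0.125 within the field blocks, which were not used because the labels do not assign rings to them. For the *AtPsbS* CO2 effects a fixed ring block could not be fitted, since a ring has 1 CO2 level. When limma-voom treated rings as random, their log2FCs were 0.27 averaged over stages, 0.74 at R5–R6 and −0.21 at V4–V5. None of these passed. The CO2 by stage difference of *AtPsbS* in VPZ-34A could be fitted with a fixed ring block, at 0.96, and did not pass.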
